A study of Eriocheir sinensis with 6 samples.

Results

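FMRFaR is the name the study gave to the gene evm.TU.CM024127.1.244 of the Chinese mitten crab, Eriocheir sinensis. The region described here is the set of accessible chromatin peaks that the authors' annotation assigned to this gene. Every row of the table of merged peaks that carried this gene identifier was taken, whatever its values, which gave 19 peaks of the 104657 merged peaks of the series. The 17908 genes with at least 1 assigned peak had a median of 3, and 965 of them (5.39%) had as many as 19 or more.

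FMRFaR encodes a G protein-coupled receptor, a membrane protein that passes a signal from outside the cell to G proteins inside it. In Drosophila the receptor of this name binds FMRFamide, a short neuropeptide of the nervous system whose relatives act on muscle and heart in many invertebrates. In the same fly it raises intracellular calcium in neurons and bears on how long the animal keeps flying. ATAC-seq marks open chromatin by the places where the Tn5 transposase can insert adapters, and accessible stretches near and far from a start site are where regulatory DNA is commonly found.

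The study followed muscle of this crab through the molting cycle, and the libraries analysed here were from the post-molt and the pre-molt stage. There were 3 post-molt libraries and 3 pre-molt libraries, each made from the muscle nuclei of 1 crab. All crabs were untreated juveniles from a farm, kept at the same water temperature under natural light, with no genetic modification and no experimental treatment in either stage. Animals differed between stages, so a stage difference is a difference between crabs and not a change followed within 1 crab. The study's methods name the walking legs as the source of muscle for the molt period, while the labels of these libraries say only muscle. The gene identifiers of the table carry no names in the sources used here, so muscle markers could not be checked. Muscle holds several cell types, and a lower share of one cell type in a sample cannot be told apart from fewer open copies of a region per cell.

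The merged peaks held 10992785 to 12016383 reads in the post-molt libraries and 11447679 to 16985168 reads in the pre-molt libraries. Pre-molt replicate 2 stood apart, with 36.69% of its counted reads inside merged peaks, against 23.82% to 27.89% in the other 5 libraries. The normalization factor of that library was 0.8411, while the factors of the other 5 lay between 1.002 and 1.089. Values below are given as CPM, the read count of a peak scaled to a common number of reads in merged peaks with these factors. A peak was called when the Benjamini-Hochberg adjusted p of edgeR's quasi-likelihood test over all 104657 merged peaks was under 0.05. Fold and log2 changes set the post-molt libraries over the pre-molt ones.

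The gene model lay on the forward strand of the sequence CM024127.1, from base 6277784 to base 6280715, and was 2932 bases long. The study assayed its transcript by quantitative PCR with a pair of primers, shown here as the designed sequences that the study listed for this gene. Their positions in the genome were not located here, and the promoter sequence was not analysed.
FMRFaR forward primer: ttactgttgtgtccgccagg
FMRFaR reverse primer: atgaaggcgagcacgttaca

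The 19 peaks were spread over 98.0 kb, from base 6183250 to base 6281248, and no peak assigned to another gene lay between them. Such an unbroken run follows from the study's methods, which give a peak outside promoters to the gene whose start site is nearest, however far. An assigned peak therefore need not act on FMRFaR, and whether the far peaks do was not tested. Only 1 peak belonged to the promoter class, and the other 18 were annotated as distal intergenic. Distal intergenic peaks thus made up 94.7% of the FMRFaR set, against 53.2% of all merged peaks. No merged peak overlapped the gene body. Upstream of the start site lay 18 peaks, and the remaining peak began 334 bases past the end of the gene. Peak widths ranged from 200 to 1423 bases with a median of 287, against a median of 347 over all merged peaks. Mean counts per library ranged from 27.3 to 477 with a median of 44.0, while the median over all merged peaks was 52.2.

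Accessibility was higher post-molt at the promoter of FMRFaR, at both of its nearest distal peaks and at 3 peaks far upstream. In all it rose at 6 peaks, fell at 1 and did not pass the test at 12. The 6 peaks that rose entered the set through post-molt lists only, and the peak that fell through pre-molt lists only. These lists were called from the same reads that the count test used, so the test is not free of this selection. The called peaks made up 36.8% of the FMRFaR set, while 9.95% of all merged peaks were called. Higher calls were 31.6% of the set against 6.08% of all merged peaks, and the single lower call was 5.26% of the set, near the 3.86% of all merged peaks. Of the 18 distal peaks 5 rose and 1 fell, against 5.65% and 3.87% of all distal intergenic peaks. The median log2 change over the 19 peaks was 0.56, against -0.03 over all merged peaks. By distance from the start site, all 3 peaks within 10 kb rose, none of the 3 peaks at 10 to 50 kb passed the test, and of the 13 peaks beyond 50 kb 3 rose and 1 fell.

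**Figure D1:**
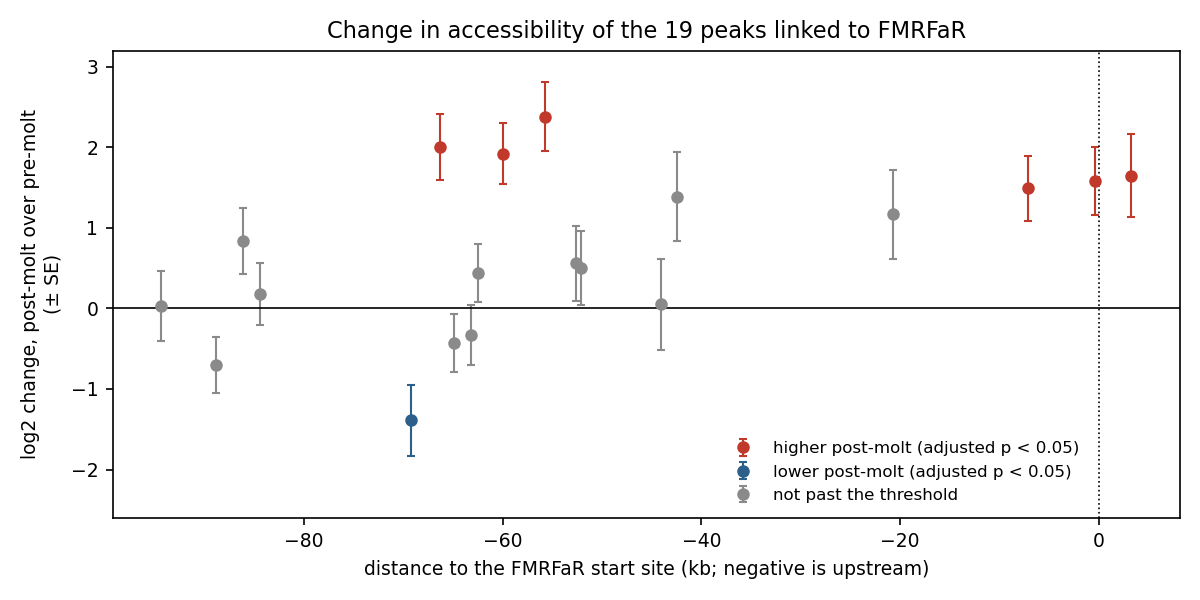
Log2 change of accessibility (post-molt over pre-molt, edgeR, error bars ± SE) of each of the 19 FMRFaR peaks against its distance from the start site in kb, with called peaks coloured and the start site at the dotted line. The 3 peaks within 10 kb sit at 1.49, 1.58 and 1.65, the 3 far upstream risers at 1.92 to 2.38, and the single lower call at -1.39 lies 69.2 kb upstream.

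The promoter peak was more open post-molt, and it entered the set through a single post-molt list. It covered CM024127.1:6277099-6277357 and ended 427 bases upstream of the start site. It held 36, 91 and 69 reads in the post-molt libraries, against 25, 26 and 17 reads in the pre-molt libraries. In CPM these were 3.1, 7.17 and 5.76 post-molt, against 2.03, 1.82 and 1.48 pre-molt. Every post-molt value lay above every pre-molt value, and the post-molt libraries were the more scattered, with replicate 1 the lowest. The mean was 5.35 ± 2.07 CPM post-molt and 1.78 ± 0.277 CPM pre-molt (SD, n = 3 each), a 3.01-fold difference. The log2 change was 1.58 (SE 0.42, edgeR adjusted p = 0.0173). It was a weak promoter peak, since 27.7% of all promoter peaks had a lower mean count than its 44.0 reads, and the median promoter peak had 82.5. Its call was lost without post-molt replicate 2 (edgeR adjusted p = 0.124), post-molt replicate 3 (0.0609), pre-molt replicate 2 (0.0561) or pre-molt replicate 3 (0.0838), while the log2 change stayed between 1.31 and 1.86.

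The other peaks within 10 kb, 1 on either side of the promoter, moved the same way. Each of them also entered the set through a single post-molt list. The peak 7083 bases upstream (CM024127.1:6270301-6270701) gave 3.96, 7.49 and 6.26 CPM post-molt, against 2.92, 1.82 and 1.57 CPM pre-molt. All post-molt values were above all pre-molt values, by a narrow margin between the replicates numbered 1. The means were 5.90 ± 1.79 CPM post-molt and 2.10 ± 0.72 CPM pre-molt (SD, n = 3 each), a 2.81-fold difference with a log2 change of 1.49 (SE 0.40, edgeR adjusted p = 0.021). As for the promoter, leaving out post-molt replicate 2 or 3 or pre-molt replicate 2 or 3 ended the call, with adjusted p of 0.119, 0.0675, 0.077 and 0.103.

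The single peak downstream of the gene (CM024127.1:6281049-6281248), 3265 bases from the start site, held 1.72, 7.33 and 3.26 CPM post-molt, against 1.46, 0.84 and 1.65 CPM pre-molt. The stages did not overlap, but post-molt replicate 1 was almost level with pre-molt replicate 3 and replicate 2 alone held most of the post-molt signal. The means were 4.10 ± 2.90 CPM post-molt and 1.32 ± 0.425 CPM pre-molt (SD, n = 3 each), with a log2 change of 1.65 (SE 0.52, edgeR adjusted p = 0.0446). This was the least stable of the higher calls. It held in 6 of 15 alternative analyses and reached an adjusted p of 0.466 without post-molt replicate 2.

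Summed over the 3 peaks within 10 kb, accessibility was 8.78, 22.0 and 15.3 CPM post-molt, against 6.41, 4.48 and 4.70 CPM pre-molt. The sums averaged 15.4 ± 6.61 CPM post-molt and 5.20 ± 1.06 CPM pre-molt (SD, n = 3 each), a 2.95-fold difference. They did not overlap between stages, which follows from the separation at each of the 3 peaks and adds no further evidence.

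Far upstream, 3 peaks between 55 and 67 kb from the start site held the largest changes of the region. Like the risers near the gene, they entered the set through post-molt lists only, called from the same reads that the count test used. The largest was at the peak 55703 bases upstream (CM024127.1:6221821-6222081), with 44, 95 and 66 reads post-molt, against 10, 18 and 13 reads pre-molt. In CPM these were 3.79, 7.49 and 5.51 post-molt, against 0.811, 1.26 and 1.13 pre-molt. Even the lowest post-molt library was far above the highest pre-molt library. The means were 5.60 ± 1.85 CPM post-molt and 1.07 ± 0.231 CPM pre-molt (SD, n = 3 each), a 5.24-fold difference with a log2 change of 2.38 (SE 0.43, edgeR adjusted p = 0.0017).

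The peak 59933 bases upstream (CM024127.1:6217574-6217851) gave 7.23, 13.7 and 6.52 CPM post-molt, against 2.52, 2.38 and 2.35 CPM pre-molt. The pre-molt libraries were nearly equal there, and all post-molt libraries were well above them. The means were 9.15 ± 3.97 CPM post-molt and 2.41 ± 0.0884 CPM pre-molt (SD, n = 3 each), a 3.79-fold difference with a log2 change of 1.92 (SE 0.38, edgeR adjusted p = 0.0029). The peak 66320 bases upstream (CM024127.1:6211097-6211464) gave 6.46, 20.3 and 10.3 CPM post-molt, against 2.03, 3.15 and 4.0 CPM pre-molt. Here too the stages did not overlap, and post-molt replicate 2 was the highest library. The means were 12.4 ± 7.17 CPM post-molt and 3.06 ± 0.99 CPM pre-molt (SD, n = 3 each), a 4.04-fold difference with a log2 change of 2.01 (SE 0.41, edgeR adjusted p = 0.00364).

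These 3 far peaks passed the test in all 15 alternative analyses, among them the omission of each library in turn. None of those analyses called peaks anew, so all keep the selection of peaks by the authors' lists. Their adjusted p ranged over those analyses from 0.000102 to 0.0166 at 55703 bases, from 0.000294 to 0.038 at 59933 bases and from 0.000266 to 0.0485 at 66320 bases. Without post-molt replicate 2 or 3, or pre-molt replicate 2 or 3, they were the only FMRFaR peaks called.

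The only peak that fell lay just upstream of these, 69227 bases from the start site (CM024127.1:6208207-6208557). It held 27, 30 and 23 reads post-molt, against 28, 108 and 87 reads pre-molt, or 2.32, 2.36 and 1.92 CPM post-molt, against 2.27, 7.56 and 7.57 CPM pre-molt. The stages overlapped, because pre-molt replicate 1 had the level of the post-molt libraries and only the other pre-molt crabs were high. The means were 2.20 ± 0.245 CPM post-molt and 5.80 ± 3.06 CPM pre-molt (SD, n = 3 each), so that the pre-molt mean was 2.63-fold the post-molt mean. The log2 change was -1.39 (SE 0.44, edgeR adjusted p = 0.0446). This call held in 7 of 15 alternative analyses, and in 1 of the 6 that left out a library, which was the omission of pre-molt replicate 1 (adjusted p = 0.0115). It was lost with adjusted p of 0.184 without pre-molt replicate 2 and 0.195 without pre-molt replicate 3.

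**Figure D2:**
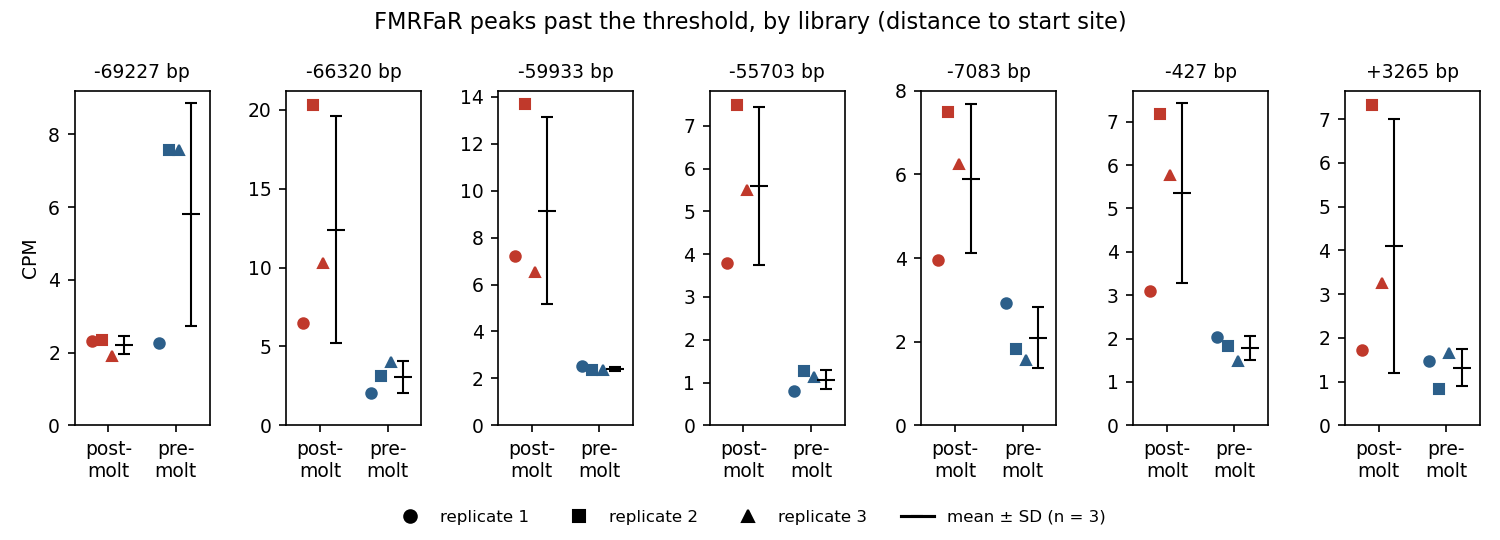
CPM of the 7 called FMRFaR peaks in each library, with 1 panel per peak (distance from the start site above it), post-molt left and pre-molt right, point shape for the replicate number and bars for the mean ± SD (n = 3). The stages separate in the 6 panels with higher calls, and in the panel at -69227 bp pre-molt replicate 1 (2.27 CPM) lies with the post-molt libraries while the other pre-molt libraries are at 7.56 and 7.57 CPM.

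Between these peaks lay the stretch with the most reads of the region, a run of 3 neighbouring peaks over 2983 bases that did not pass the test. The strongest was the peak 63147 bases upstream (CM024127.1:6213215-6214637), 1423 bases wide with 10 summits. It held 33, 41.4 and 26.4 CPM post-molt, against 17.5, 60.7 and 48.1 CPM pre-molt. The pre-molt libraries lay on both sides of the post-molt ones, with replicate 1 the lowest and replicate 2 the highest of all 6. The means were 33.6 ± 7.51 CPM post-molt and 42.1 ± 22.2 CPM pre-molt (SD, n = 3 each), with a log2 change of -0.33 (SE 0.37, edgeR adjusted p = 0.643).

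Its upstream neighbour, at 64919 bases, gave 9.64, 12.5 and 7.94 CPM post-molt, against 6.98, 17.8 and 15.7 CPM pre-molt (log2 change -0.43, edgeR adjusted p = 0.51). Its downstream neighbour, at 62458 bases, gave 16.1, 25.3 and 12.0 CPM post-molt, against 6.82, 15.7 and 16.9 CPM pre-molt (log2 change 0.44, edgeR adjusted p = 0.509). In each of these peaks the stages overlapped and pre-molt replicate 1 was the lowest library. The run held 52.7% of all reads in FMRFaR peaks. Its summed level was 58.7, 79.2 and 46.4 CPM post-molt, against 31.3, 94.3 and 80.6 CPM pre-molt, which averaged 61.4 ± 16.6 CPM post-molt and 68.7 ± 33.1 CPM pre-molt (SD, n = 3 each). The run took 55.3%, 42.0% and 39.9% of the FMRFaR reads post-molt, against 46.9%, 65.8% and 65.2% pre-molt, so the shares overlapped too.

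Scaled by peak width, the 3 far risers lay within the range of this strong stretch post-molt and below it pre-molt. The peaks 66320 and 59933 bases upstream averaged 33.6 and 32.9 CPM per kb post-molt, against 8.32 and 8.69 CPM per kb pre-molt. The peak 55703 bases upstream averaged 21.4 CPM per kb post-molt and 4.09 CPM per kb pre-molt. The 3 peaks of the run averaged 19.2 to 34.2 CPM per kb post-molt and 25.3 to 29.6 CPM per kb pre-molt. The promoter peak had 20.6 CPM per kb post-molt and 6.86 CPM per kb pre-molt, and the peak that fell had 6.28 CPM per kb post-molt and 16.5 CPM per kb pre-molt. No test was run between peaks of different position.

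The other 9 peaks that did not pass the test were distal peaks with mean counts of 27.3 to 67.7. The outermost, 94335 bases upstream, held 31, 45 and 21 reads post-molt, against 27, 49 and 25 reads pre-molt, which was 2.66 ± 0.897 CPM post-molt and 2.60 ± 0.72 CPM pre-molt (SD, n = 3 each). Its groups overlapped fully, with a log2 change of 0.03 (SE 0.44, edgeR adjusted p = 0.979). The peak at 84406 bases held 31, 61 and 71 reads post-molt, against 58, 59 and 34 reads pre-molt, again with overlapping stages (log2 change 0.18, edgeR adjusted p = 0.824).

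A pair of peaks beyond 85 kb separated the stages without passing the test, in opposite directions. The peak at 88828 bases gave 3.36, 4.81 and 4.18 CPM post-molt, against 5.60, 7.21 and 7.31 CPM pre-molt (log2 change -0.70, SE 0.35, edgeR adjusted p = 0.223). The peak at 86161 bases gave 2.67, 4.81 and 4.26 CPM post-molt, against 2.19, 2.52 and 1.83 CPM pre-molt (log2 change 0.84, SE 0.41, edgeR adjusted p = 0.218). With these, post-molt values lay wholly above pre-molt values at 7 of the 19 peaks and wholly below at 1, while 15.0% and 12.1% of all merged peaks showed these patterns.

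The last 5 peaks lay between 20 and 53 kb upstream, and all had overlapping stages. The peak at 52588 bases held 31, 72 and 34 reads post-molt, against 14, 58 and 27 reads pre-molt (log2 change 0.56, edgeR adjusted p = 0.51). The peak at 52152 bases held 18, 49 and 41 reads post-molt, against 22, 27 and 30 reads pre-molt (log2 change 0.50, edgeR adjusted p = 0.567). The peak at 44047 bases held 10, 37 and 33 reads post-molt, against 21, 53 and 10 reads pre-molt (log2 change 0.05, edgeR adjusted p = 0.973). The last of these was the least covered peak of the set, where 10 reads in a library leave a wide counting error.

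The peak at 42452 bases held 12, 87 and 40 reads post-molt, against 11, 26 and 18 reads pre-molt (log2 change 1.39, SE 0.55, edgeR adjusted p = 0.117). The peak at 20667 bases held 17, 78 and 22 reads post-molt, against 15, 19 and 19 reads pre-molt (log2 change 1.17, SE 0.55, edgeR adjusted p = 0.192). In both, post-molt replicate 2 stood far above the other post-molt libraries, and replicate 1 was at the pre-molt level. Without post-molt replicate 1 the peak at 42452 bases passed the test (log2 change 1.83, edgeR adjusted p = 0.0167), and it was the only peak that any of the alternative analyses added.

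Post-molt replicate 2 was the highest post-molt library at 18 of the 19 peaks, whereas it was the highest at 34.5% of all merged peaks. Pre-molt replicate 1 was the lowest pre-molt library at 11 peaks, against 33.5% of all merged peaks, and pre-molt replicate 2 the highest at 8 peaks, against 36.0%. Without post-molt replicate 2 the number of FMRFaR peaks called was 3, and the calls over all merged peaks fell to 3996, or 3.82%. The part of single crabs in the differences at the promoter and at the peaks 7083 bases upstream and 3265 bases downstream was not tested beyond these omissions.

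The summed accessibility of the whole set did not pass the test. This sum is not the accessibility of the gene itself, since most of the peaks lie far from it. Summed over all linked peaks, FMRFaR had 107, 191 and 122 CPM post-molt, against 70.5, 133 and 118 CPM pre-molt, or 140 ± 44.8 CPM post-molt and 107 ± 32.6 CPM pre-molt (SD, n = 3 each). The stages overlapped, and the log2 change of 0.38 had a 95% interval from -0.16 to 0.93. Fitted over the sums of 17908 genes, of which 11.0% were called, the edgeR adjusted p was 0.433. Summed over the 6 peaks within 50 kb only, the log2 change was 1.33 (edgeR adjusted p = 0.0188). That sum contains the 3 called peaks within 10 kb and is no separate evidence, and no library was left out for it. The 3 peaks at 10 to 50 kb alone summed to 3.36, 15.9 and 7.94 CPM post-molt, against 3.81, 6.86 and 4.09 CPM pre-molt, with overlapping stages.

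By class, the promoter sum is the single promoter peak described above and adds no further evidence. In a fit over 31064 sums per gene and class, of which 9.70% were called and 5.79% were called higher, it had a log2 change of 1.59 (SE 0.41, edgeR adjusted p = 0.0216), and the adjusted p was 0.0643 to 0.134 in the 4 library omissions that ended the call. The distal sum was 102, 179 and 114 CPM post-molt, against 67.5, 141 and 117 CPM pre-molt, and its stages overlapped. Its means were 132 ± 41.3 CPM post-molt and 108 ± 37.4 CPM pre-molt (SD, n = 3 each). The log2 change was 0.28, with an approximate 95% interval from -0.32 to 0.88 and an edgeR adjusted p of 0.629. The 15 distal peaks outside the strong run summed to 44.4, 102 and 64.1 CPM post-molt, against 33.4, 47.1 and 41.6 CPM pre-molt, where post-molt replicate 1 lay between the pre-molt libraries.

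Whether the promoter moved relative to the distal peaks was asked within each library. The promoter took 2.92%, 3.80% and 4.96% of the FMRFaR reads post-molt, against 3.04%, 1.27% and 1.20% pre-molt. The log2 ratio of promoter to distal reads was -5.02, -4.65 and -4.24 post-molt, against -4.94, -6.23 and -6.29 pre-molt. Replicates 2 and 3 of the stages stood apart, but pre-molt replicate 1 lay among the post-molt values. The mean ratio was -4.63 ± 0.39 post-molt and -5.82 ± 0.76 pre-molt (SD, n = 3 each), a difference of 1.18. The exact two-sided permutation test over the 20 assignments of the libraries gave p = 0.2, and the smallest p that 3 against 3 libraries allow is 0.1. Set against the distal peaks within 50 kb only, the difference was 0.45 (exact permutation p = 0.2).

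**Figure D3:**
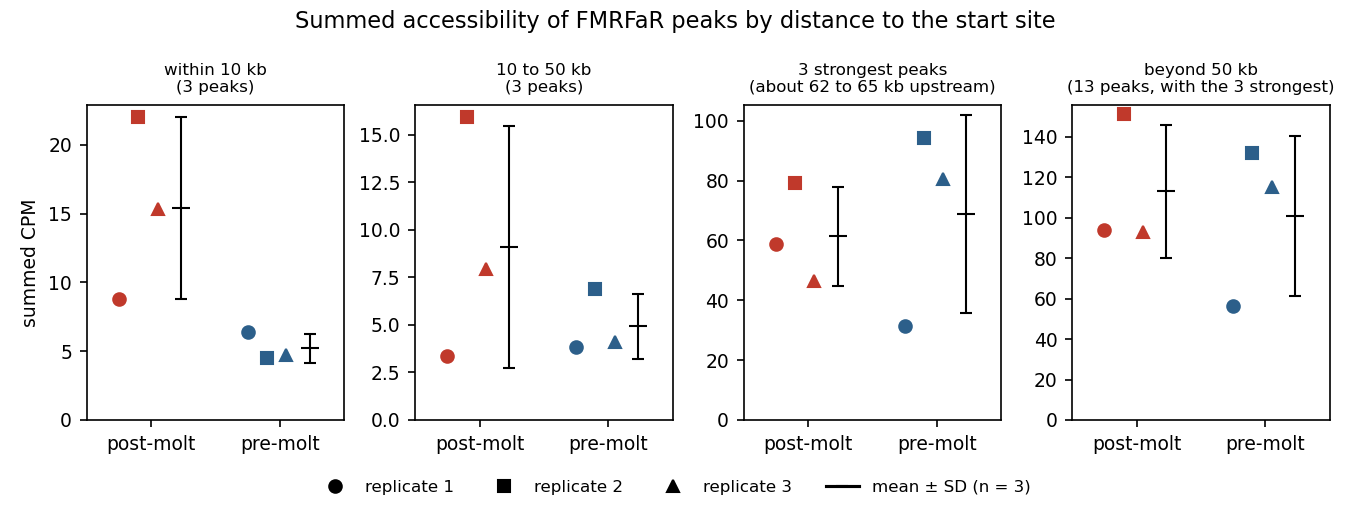
Summed CPM of FMRFaR peaks in each library by distance from the start site, post-molt left and pre-molt right in each panel, with bars for the mean ± SD (n = 3) and separate vertical scales from 0. The stages separate only in the panel of the 3 peaks within 10 kb (8.78 to 22.0 CPM post-molt, 4.48 to 6.41 CPM pre-molt), as they do at each of those peaks. The 3 strongest peaks and the 13 peaks beyond 50 kb overlap.

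The authors also called peaks in each library on its own, from the same reads as the counts above. The lists held 55782 to 60080 regions post-molt and 57301 to 61788 regions pre-molt. Of the 114 possible combinations of FMRFaR peak and library, 36 had a called region that overlapped the merged peak by at least 1 base. By library these were 2, 8 and 8 calls post-molt, against 3, 9 and 6 calls pre-molt, so replicate 1 had the fewest in both stages. Reads were counted in every library at all 19 peaks, so the absence of a call does not show that the chromatin was closed.

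Every FMRFaR peak was called in at least 1 list, so a peak that was open in 1 stage only could enter the set only through a list of that stage, and the stage of its calls adds nothing to the count test. The count test is not free of this selection, since the same reads decided which peaks entered the set. As a description, the 6 peaks that rose were called in post-molt lists only, and the peak that fell in 2 pre-molt lists only. Over the whole set 9 peaks were called in post-molt lists only, 7 in pre-molt lists only and 3 in both. Most calls were isolated, as 11 peaks were called in a single library. The promoter peak was called only in post-molt replicate 3, with a -log10 q of 3.67 and a fold enrichment of 2.69 over the caller's local background. The peak 66320 bases upstream was called in post-molt replicates 2 and 3, with a -log10 q of 19.5 and 4.50.

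The strong peak 63147 bases upstream was the only one called in all 6 libraries, with a -log10 q of 13.9, 9.92 and 8.23 post-molt, against 4.91, 85.1 and 26.9 pre-molt. Pre-molt replicates 2 and 3 held the 2 highest values there, and pre-molt replicate 1 the lowest. The peak 88828 bases upstream was called in all 3 pre-molt lists (-log10 q of 6.02, 11.4 and 12.7) and in no post-molt list, although its count difference did not pass the test.

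**Figure D4:**
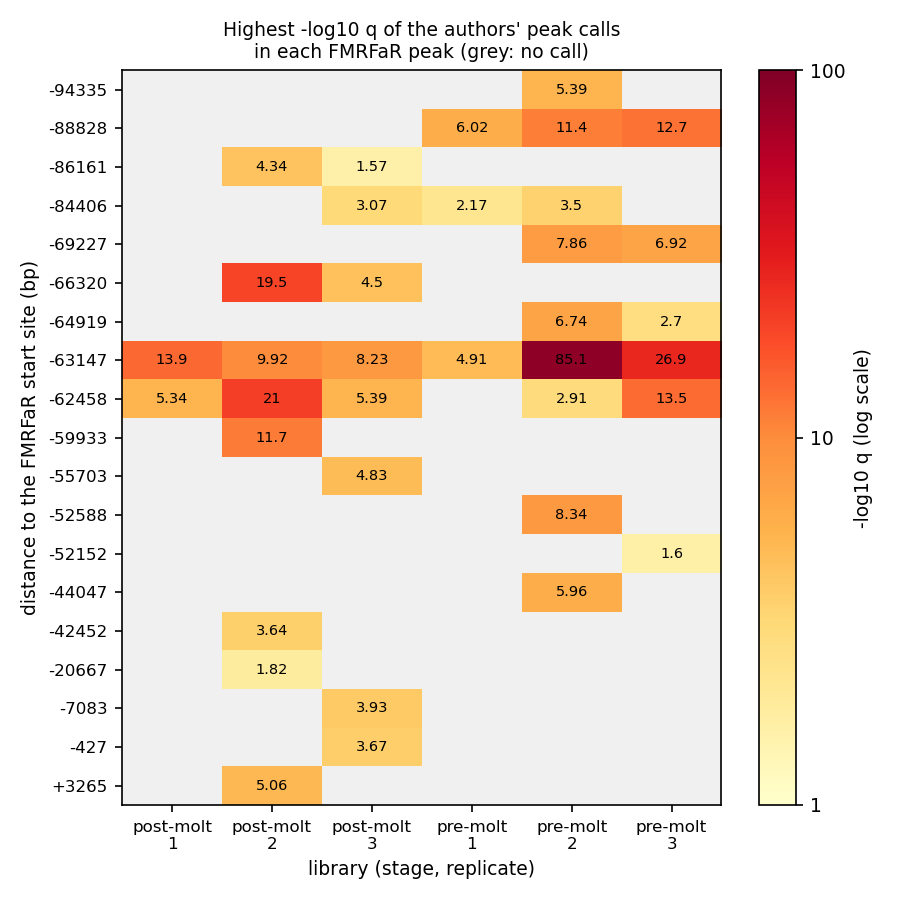
Highest -log10 q (colour on a log scale, value printed in each cell) of the regions the authors called in each library within each of the 19 FMRFaR peaks, with rows by distance from the start site in bp, post-molt libraries left and pre-molt libraries right, and grey where no region was called. The peak at -63147 bp is called in all 6 libraries and reaches 85.1 in pre-molt replicate 2, while the rows from -42452 bp to +3265 bp hold post-molt calls only.

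Of the 26 peaks of other genes within 100 kb of the outermost FMRFaR peaks, 1 rose and none fell by edgeR's adjusted p, while 9.95% of all merged peaks were called. On the upstream side 16 peaks of 1 gene had a median log2 change of -0.16, and none was called. On the downstream side 10 peaks of 2 genes had a median log2 change of 0.89. The called neighbour lay there, at CM024127.1:6324487-6325023, with a log2 change of 1.63 (edgeR adjusted p = 0.0092). It belonged to a gene that begins at base 6357781, of whose 13 linked peaks, most of them farther than 100 kb away, 5 rose. The difference between FMRFaR peaks and their neighbours was not tested.

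Among the other 10 receptors and signalling genes in the study's table of candidates, which the authors chose partly on these libraries and which are therefore no independent evidence, 4 had a higher and 2 a lower summed accessibility by edgeR's adjusted p, against 6.90% and 4.11% of all genes. The sum of FMRFaR itself, given above, was not called. Of the 13 promoter peaks of these genes 2 rose and 1 fell, while 4.90% of all promoter peaks rose and 3.54% fell. The promoter peaks that rose belonged to mth2, named for a methuselah-like receptor of flies, and sky, named for a regulator of vesicle traffic in flies. The mth2 peak 265 bases past its start site averaged 7.34 ± 2.66 CPM post-molt and 2.40 ± 1.03 CPM pre-molt (SD, n = 3 each, log2 change 1.61, edgeR adjusted p = 0.0146), while the second mth2 promoter peak had a log2 change of 0.82 (0.123). The sky peak at the start site averaged 9.80 ± 4.42 CPM post-molt and 3.90 ± 0.24 CPM pre-molt (SD, n = 3 each, log2 change 1.33, edgeR adjusted p = 0.0227), while the other sky promoter peaks had log2 changes of 0.25 and 0.26 (0.688 and 0.682). The promoter peak that fell belonged to SSTR2, named for a somatostatin receptor, with 18.3 ± 5.30 CPM post-molt and 65.7 ± 17.4 CPM pre-molt (SD, n = 3 each, log2 change -1.84, edgeR adjusted p = 0.00135).

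Calls in both directions within 1 gene, as at FMRFaR, were found for 1 of these 10 genes, gpr161, named for an orphan G protein-coupled receptor, with 4 peaks higher and 2 lower of 22. Over all genes with at least 2 called peaks, 332 of 2071 (16.0%) had calls in both directions. The lower call at FMRFaR rests on 1 peak whose stages overlapped, so this pattern was lost wherever that call was lost.

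Promoter peaks with a profile close to that of FMRFaR were sought over the 6 libraries among 9281 genes whose strongest promoter peak had a mean count of at least 50. Pearson's r of log2 CPM was above 0.9 for 207 of them, and the closest 5 had an r of 0.98 to 0.993. The closest gave 6.80, 11.9 and 9.36 CPM post-molt, against 5.27, 5.32 and 4.61 CPM pre-molt, without passing the test (edgeR adjusted p = 0.105). The next were evm.TU.CM024120.1.528 and evm.TU.CM024135.1.528, both with an r of 0.983 and log2 changes of 1.43 and 1.59 (edgeR adjusted p = 0.0121 and 0.00954). The files do not pair these identifiers with gene names. With 6 points that split by stage, such values describe the shared order of the libraries only.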

How the data were processed

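ATAC-seq libraries of muscle nuclei from 3 post-molt and 3 pre-molt crabs were analysed. The authors aligned reads with BWA to the E. sinensis genome assembly, called peaks per library with MACS2, keeping duplicates, and annotated them with ChIPseeker. The sources used here do not say how peaks were merged and counted. The deposited table holds whole-number read counts per merged peak, and its promoter class reached 3000 bp from a start site. The deposited RPM values, made by the authors from the count plus 1, served only to recover library totals (41050903 to 51652893 reads). The deposited peak lists give fold enrichment (a ratio over local background) and −log10 q per summit. Further columns with the authors' own stage comparison (log2 fold changes, p and q values) were not used.

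Counts of all merged peaks were fitted with edgeR 4.0.16 in R 4.3.3 (TMM, quasi-likelihood test, stage as the only term, no filter on low counts). Sums per gene and per gene and class were fitted in the same way over all genes. Each SE was computed from the log2 change and the test statistic. The intervals span 1.96 SE either side, which is somewhat narrow for 3 crabs a stage. The study's methods name DESeq2, which was run as an alternative (1.42.0), as was limma 3.58.1, and the fitting steps were tested on simulated data. Alternatives were other scalings, a low-count filter, a replicate block, loess offsets and the omission of each library. Scaling by all counted reads was added after the data were seen. Values in every library were given for the promoter peak, every called peak, the strongest peak of each class and the nearest and farthest peaks, and the remaining peaks were added after their values were seen. Of the 5 genes with the closest promoter profile, 2 are named by identifier, because identifiers without gene names carry little meaning. The gene, its candidate list and the tests were chosen with earlier results of these data known. Depth was 10992785 to 16985168 reads in peaks per library, and replicates differed by more than sampling noise, with a chi-square per degree of freedom of 5.66 to 18.6. Low counts, such as 10 reads in a peak, limit the precision of single values.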

Additional observations from a re-analysis of the deposited data

How the results depend on the processing

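The 3 risers 55703, 59933 and 66320 bases upstream passed the test in every alternative run. Over the omissions of single libraries, the number of FMRFaR peaks called ranged from 3 to 7, the log2 change of the promoter sum from 1.33 to 1.87 and of the distal sum from -0.01 (without post-molt replicate 2) to 0.51. The promoter sum lost its call without post-molt replicate 2 (edgeR adjusted p = 0.134) or 3 (0.0699) and without pre-molt replicate 2 (0.0643) or 3 (0.0806). Under other scalings, filters and tools 5 to 7 peaks were called, all of them among the 7 described above. Restricting the sum of linked peaks to 50 kb, which keeps the 3 called peaks within 10 kb, gave a log2 change of 1.33 (adjusted p = 0.0188). The promoter against distal difference stayed positive, between 0.45 and 1.62, and 5 to 6 of the other 10 receptor sums were called throughout. At a -log10 q of at least 5, 21 of the calls per library were left. Neighbouring peaks called were 2 with median centring and with DESeq2, and 1 to 2 over the omissions.

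The peak at 3265 bases lost its call with the replicate block (0.0747), limma (0.0849), loess offsets (0.07) and median centring (0.0589). Peaks near no change switched sign: the peak at 94335 bases to -0.01 (DESeq2 size factors and Wald test), -0.11 (median centring and loess offsets) and -0.04 (all counted reads), and over omissions from -0.24 to 0.30. The peak at 44047 bases went to -0.10 (median centring), -0.04 (all counted reads) and -0.15 (loess offsets), over omissions -0.31 to 0.77. The peak at 63147 bases went to 0.02 with loess offsets and from -0.71 to 0.04 over omissions, and the peak at 84406 bases from -0.07 to 0.45 over omissions. The cause was not tested.

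Over all merged peaks 61.2% of calls were higher, against 73.3% when scaled by reads in peaks and 49.9% with median centring, which moved the median log2 change to 0.13 and -0.15. The same-numbered libraries did not deviate together over all merged peaks (r of -0.0881, -0.104 and -0.0328), against r of -0.0564 to 0.134 for unlike numbers. Whether the replicate numbers mark a pairing was not tested further. With the replicate block 5 FMRFaR peaks were called, and the promoter sum had a log2 change of 1.53 (adjusted p = 0.0302). With 3 crabs a stage and low counts at most peaks, a peak that did not pass the test may still differ between stages.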
